A study of Mus musculus with 29 samples.

Results

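The lung methylation of 10 genes of the leucocyte cytoskeleton and its signalling was examined in mouse offspring with and without allergic airways disease (AAD). The genes were Cytip, Bin2, Rhoh, Coro1a, Laptm5, Ptprc, Dock2, Vav1, Rac2 and Arhgdib, and they were followed in the windows that carried their names in the deposited table, 153 of 260686 windows in all. Cytip, Bin2 and Rhoh were chosen by their values in Sham offspring, where they held the 3 largest falls in methylation after ovalbumin (OVA) among all genes, whereas the other 7 genes were taken as pan-leucocyte genes of related function. Dock2 gave 76 of the windows, Ptprc 15, Cytip 12, Vav1 12, Bin2 10, Rhoh 9, Laptm5 6, Arhgdib 5, Rac2 5 and Coro1a 3. All 153 windows had a value in every library and all were tested.

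Whole-genome methylation sequencing (WGMS) was performed on homogenates of the right lower lung lobe in 29 libraries of BALB/c offspring, labelled as female and 13 weeks old. The dams were given saline (Sham) or fine roadside particulate matter in saline (PM) intranasally from before mating until weaning. The offspring were sensitised to OVA with alum and challenged with OVA aerosol, or received saline in its place. The lungs were taken after lung function testing under anaesthesia with methacholine. The methods describe lavage of the airways straight after that test. The groups Sham, Sham-OVA and PM held 7 libraries each and PM-OVA held 8. Replicates 7 and 8 of PM-OVA carry library names of another form than the rest (PM-OVA_Rel1 and PM-OVA_Rel2). The dam or litter of a mouse was not given, so p-values measure the spread between libraries and treat littermates as independent. A whole lobe holds many cell types, and in such bulk tissue a changed mixture of cells and a change of methylation within cells cannot be told apart.

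DNA methylation in mammals is the addition of a methyl group to the cytosine of a CpG dinucleotide, and the start of a gene that a cell lineage uses is typically unmethylated in that lineage and often methylated in others. Leucocytes move, adhere and signal through actin, which is steered by small GTPases such as Rac. Exchange factors such as Vav1 and Dock2 load Rac with GTP, inhibitors such as Arhgdib hold such GTPases in the cytosol, and coronin binds the actin filaments themselves. Most of these genes are used mainly in blood cells.

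The sequence around the starts of these genes varied in its content of CpG. A window of the deposited table covered 100 cytosines in CpG context, that is, 50 CpG dinucleotides counted on both strands, so a window is short where CpGs are dense. The windows of largest fall in the 10 genes, called lead windows below and set by the Sham offspring, were between 2381 and 6729 bp long and held 50 CpG dinucleotides in GRCm38, except that of Arhgdib, which held 52. By contrast, the window at the start of Coro1a was 1353 bp long. Sequences from the start regions of 4 genes, shown for this contrast, are given 5′ to 3′ on the strand of the gene from RefSeq (GRCm38.p6, a C57BL/6J reference), with each CpG in capitals. The first lies within the lead window of Cytip (chr2:58159670-58159869, minus strand). It was picked as the 200 bases without exon sequence that hold the most CpGs in that window, 6, so its count cannot be compared with those of the others. The others are the 250 bases upstream of a RefSeq start of Dock2, within its lead window (chr11:34783906-34784155, minus strand, 4 CpGs), of Vav1, within a window of low methylation (chr17:57278850-57279099, plus strand, 7 CpGs), and of Coro1a, within a window that was nearly unmethylated (chr7:126704817-126705066, minus strand, 13 CpGs). The RefSeq table gives a further start of Coro1a in the same window, with 8 CpGs in the 250 bases upstream.
Cytip: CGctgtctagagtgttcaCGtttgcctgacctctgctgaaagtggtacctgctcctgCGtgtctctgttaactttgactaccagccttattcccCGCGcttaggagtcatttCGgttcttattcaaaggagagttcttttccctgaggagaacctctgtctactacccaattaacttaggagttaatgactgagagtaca
Dock2: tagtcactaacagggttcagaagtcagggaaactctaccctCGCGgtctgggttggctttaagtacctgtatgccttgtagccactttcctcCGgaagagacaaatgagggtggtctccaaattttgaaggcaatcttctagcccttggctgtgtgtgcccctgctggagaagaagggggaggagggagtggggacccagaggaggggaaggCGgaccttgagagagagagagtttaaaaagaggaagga
Vav1: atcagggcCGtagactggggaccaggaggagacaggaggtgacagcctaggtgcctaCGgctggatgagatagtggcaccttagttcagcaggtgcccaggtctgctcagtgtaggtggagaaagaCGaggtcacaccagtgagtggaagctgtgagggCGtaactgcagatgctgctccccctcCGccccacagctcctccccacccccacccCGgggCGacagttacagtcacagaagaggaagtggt
Coro1a: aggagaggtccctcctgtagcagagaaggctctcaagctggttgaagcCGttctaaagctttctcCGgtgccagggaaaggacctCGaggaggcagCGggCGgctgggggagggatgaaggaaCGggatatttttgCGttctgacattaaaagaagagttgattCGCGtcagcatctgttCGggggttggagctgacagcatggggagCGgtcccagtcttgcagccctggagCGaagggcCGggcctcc

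Over all 32851 promoters of the RefSeq table, the median was 6 CpGs in those 250 bases, with quartiles of 2 and 16. The letters GAGGAAGT, a site for the myeloid and lymphoid factor PU.1, were found on either strand in 3.20% of all promoters (250 bases before to 50 bases after the start) and in 1 of the 12 promoters that the table gives for 8 of the 10 genes, which was that of Vav1. TGTGGT, a site for RUNX factors, was found in 16.8% of all promoters and in 2 of the 12, of Arhgdib and Cytip. These matches describe the letters of the windows only.

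A single library stood apart and is given before the results. Sham replicate 1 had values in 1224 of 1230 windows of the Y chromosome, against 29 to 46 in the other 28 libraries, and 5.95% of its X chromosome windows were under 10% methylation, against at most 0.488% elsewhere, which goes against its label of a female mouse. It did not enter the comparison of PM-OVA with PM except through the shared estimate of spread. In the lead windows it was neither the lowest nor the highest of the Sham libraries in any of the 10 genes, and the difference between Sham-OVA and Sham without it was −30.5 percentage points for Cytip (−29.8 with it), −26.2 for Bin2 (−26.2) and −26.0 for Rhoh (−26.0). The mean over all windows ranged from 67.8 to 70.2% in the other libraries and was 69.1% in Sham replicate 1. The table holds percentages without counts, and the depth of reading of a window is therefore unknown here.

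The 3 genes chosen by the Sham offspring are described first. Cytip encodes an adaptor that binds cytohesins and limits leucocyte adhesion. Its lead window lay on chromosome 2 (chr2:58156260-58160444, ENSMUSG00000026832), which holds the RefSeq start of the coding transcript and 637 exonic bp, of which 389 bp are untranslated. Methylation was between 57.7 and 68.9% in Sham (median 63.1%) and between 26.2 and 42.9% in Sham-OVA (median 34.6%). In PM it was between 55.1 and 65.7% (median 62.3%) and in PM-OVA between 30.4 and 45.4% (median 35.1%). Every OVA library was thus below every saline library of the same maternal group.

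Bin2 encodes a protein that bends membranes and acts at the podosomes and phagocytic cups of leucocytes. Its lead window (chr15:100667744-100670140, ENSMUSG00000098112) holds the annotated start of the gene and 141 exonic bp. Methylation was between 59.4 and 75.1% in Sham (median 68.2%) and between 34.3 and 49.9% in Sham-OVA (median 41.4%). The PM libraries were between 62.2 and 76.7% (median 67.8%), and the PM-OVA libraries between 28.9 and 48.1% (median 43.6%). Again the groups with and without OVA did not overlap.

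Rhoh encodes a small GTP-binding protein of haematopoietic cells that lacks GTPase activity and takes part in signalling from the T cell receptor. Its lead window (chr5:65863076-65866824, ENSMUSG00000029204) lay 3.74 kb downstream of the 5′ end of the principal transcript at its midpoint and consisted of exon sequence of annotated transcripts. Methylation was between 65.3 and 72.0% in Sham (median 66.4%) and between 36.2 and 47.1% in Sham-OVA (median 39.9%). It was between 56.8 and 70.7% in PM (median 69.0%) and between 38.2 and 45.9% in PM-OVA (median 42.2%). No OVA library reached the lowest saline library, which was PM replicate 1.

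Because the Sham and Sham-OVA libraries chose these windows, the falls there are a description. The means went from 63.8% ± 4.31 to 33.9% ± 5.85 for Cytip, from 68% ± 4.60 to 41.9% ± 5.34 for Bin2 and from 67.4% ± 2.59 to 41.4% ± 3.99 for Rhoh (SD, n = 7 each). The next gene below them, which the rule left out, was Mir142hg, the host of a haematopoietic microRNA, with a fall of 24.1 points, from 60.4 to 36.3% (chr11:87755394-87757156), against the fall of 26.0 points in Rhoh just inside.

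The PM and PM-OVA libraries were used to test the same windows, since they share no library with the Sham groups. A window was called where limma gave an adjusted p under 0.05 over all 259167 windows tested and the group means differed by at least 10 percentage points. In PM offspring, Cytip was 60.7% ± 4.67 (SD, n = 7) without and 35.9% ± 5.12 (SD, n = 8) with OVA, a difference of −24.8 points (limma adjusted p = 3.10e-08, log2 ratio −1.44, SE 0.15). Bin2 fell from 67.4% ± 5.00 to 41.6% ± 6.29, a difference of −25.8 points (limma adjusted p = 4.20e-08, log2 ratio −1.53, SE 0.16). Rhoh fell from 67.0% ± 4.88 to 42.7% ± 2.72, a difference of −24.2 points (limma adjusted p = 5.19e-10, log2 ratio −1.42, SE 0.11). Ranked by fall among all windows tested in PM offspring, Bin2 stood 2nd, Cytip 4th and Rhoh 5th, as the plot of the lead windows by library shows beside the other genes.

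**Figure D1:**
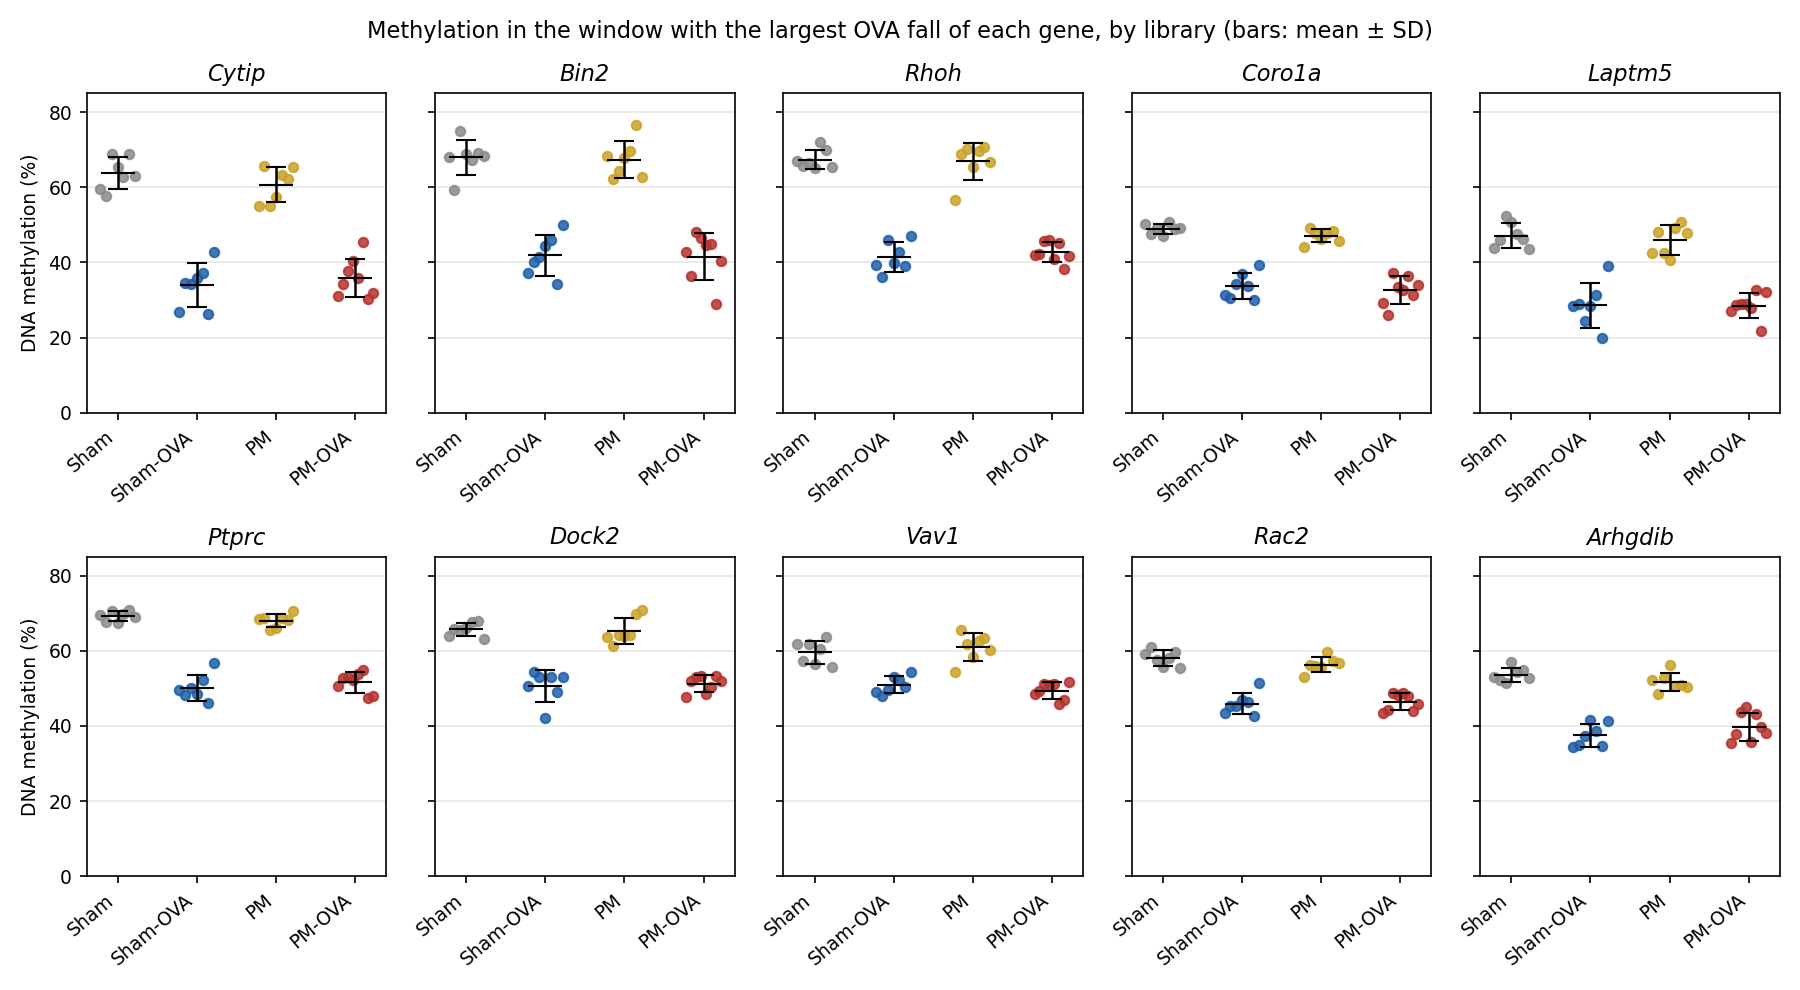
Methylation (%, y axis) in the lead window of each of the 10 genes, by group (x axis). Each point is 1 library and bars are mean ± SD; in every gene the PM-OVA points lie below all PM points, and the 3 genes of the upper left panels, chosen on the Sham groups, fall the furthest.

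Among the 7 comparison genes, which the rule did not choose by their size of change, the lead window also fell in PM offspring. At the cell surface, Ptprc encodes CD45, the receptor phosphatase of all leucocytes that sets the threshold of antigen receptor signalling. Its lead window (chr1:138168721-138175449, ENSMUSG00000026395), which holds the start of the gene's principal transcript, was between 65.6 and 70.6% in PM (median 68.4%) and between 47.4 and 54.8% in PM-OVA (median 52.5%). The difference was −16.5 points (limma adjusted p = 5.02e-10, log2 ratio −0.98, SE 0.07). In Sham and Sham-OVA its means were 69.3% ± 1.36 and 50.2% ± 3.44 (SD, n = 7 each).

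Laptm5, a lysosomal membrane protein that turns down antigen receptors, had its lead window at the start of the gene (chr4:130913037-130916041, ENSMUSG00000028581). Methylation there was between 40.7 and 50.8% in PM (median 47.9%) and between 21.7 and 32.6% in PM-OVA (median 28.8%). The difference was −17.5 points (limma adjusted p = 5.48e-07, log2 ratio −1.07, SE 0.14), the largest of the 7 comparison genes, and the groups did not overlap.

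Of the exchange factors for Rac, Dock2, which drives the migration of lymphocytes and neutrophils, fell in the window at its start (chr11:34781241-34786111, ENSMUSG00000020143) from 65.4% ± 3.46 (SD) in the 7 PM libraries to 51.3% ± 2.20 in the 8 PM-OVA libraries. This was a difference of −14.1 points (limma adjusted p = 5.82e-08, log2 ratio −0.83, SE 0.09). The PM libraries lay between 61.4 and 70.8%, and the PM-OVA libraries between 47.7 and 53.4%. Vav1, an exchange factor downstream of antigen receptors, fell in the window just downstream of its start (chr17:57279187-57283106, ENSMUSG00000034116) from between 54.3 and 65.6% (median 61.8%) to between 45.9 and 51.7% (median 50.2%), a difference of −11.5 points (limma adjusted p = 5.56e-07, log2 ratio −0.66, SE 0.08). Vav1 was the gene with the smallest lead difference in Sham offspring, −8.70 points.

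Rac2, the Rac GTPase of blood cells and a part of the neutrophil oxidase, had its lead window at the start (chr15:78571598-78575337, ENSMUSG00000033220). It was between 52.9 and 59.6% in PM (median 56.4%) and between 43.4 and 48.9% in PM-OVA (median 46.9%). The difference of −9.95 points (limma adjusted p = 2.97e-07, log2 ratio −0.57, SE 0.07) was just under the minimum of 10 points, so that Rac2 alone among the lead windows was not called, although its groups did not overlap. This window also overlaps the predicted gene Gm36738.

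Arhgdib, the inhibitor that keeps small GTPases bound to GDP in leucocytes, fell in its lead window (chr6:136936200-136939210, ENSMUSG00000030220), which is intronic, from 51.7% ± 2.48 (SD) in the 7 PM libraries to 39.8% ± 3.74 in the 8 PM-OVA libraries. The difference was −11.9 points (limma adjusted p = 4.79e-07, log2 ratio −0.68, SE 0.09). The window at its start (chr6:136939211-136942734) fell by 13.9 points, from 42.4% ± 4.01 to 28.5% ± 2.96 (limma adjusted p = 1.25e-06). All 5 windows of Arhgdib overlap Pde6h, so that the values belong to both genes.

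Coro1a encodes the coronin that binds actin filaments in leucocytes. Its lead window (chr7:126701336-126703716, ENSMUSG00000030707) lay within the gene with 1220 exonic bp and fell from between 44.2 and 49.3% in PM (median 47.7%) to between 26.1 and 37.2% in PM-OVA (median 33.1%). The difference was −14.5 points (limma adjusted p = 2.23e-08, log2 ratio −0.87, SE 0.09). The window at the start, which is the 1353 bp one with the CpG-rich sequence above, had a mean of 4.86% ± 0.45 in PM and 3.22% ± 0.98 in PM-OVA, a difference of −1.64 points (limma adjusted p = 0.00663). The window just upstream (chr7:126705070-126708335), which holds the 5′ end of the annotated gene, fell from 63.2% ± 4.15 to 54.2% ± 2.5, a difference of −9.06 points (limma adjusted p = 0.000340).

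The start of a gene was therefore not always where the fall was largest. In Vav1, the window at the start (chr17:57276497-57279168) was already low, at 22% ± 2.20 in PM, and fell to 16.4% ± 2.00 in PM-OVA (−5.62 points; limma adjusted p = 0.000533). In Ptprc, the window with the 5′ end of the annotated gene (chr1:138175649-138187451), upstream of the lead window, fell from 79.6% ± 0.99 to 75.3% ± 1.36 (−4.26 points; limma adjusted p = 0.000415). In Cytip, the annotated gene begins with non-coding transcripts far upstream of the coding ones, and the window there (chr2:58195275-58201815) rose from 69.9% ± 1.54 to 75.2% ± 1.5 (5.28 points; limma adjusted p = 2.85e-06). The window with the start of the principal coding transcript of Cytip, next to the lead window on its upstream side (chr2:58160470-58166051), fell from 59.2% ± 1.81 to 51.7% ± 2.28 (−7.43 points; limma adjusted p = 1.35e-05). In Bin2, Laptm5, Dock2 and Rac2, the lead window itself held the annotated start, while no window named for Rhoh held its annotated 5′ end.

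Counted over the 153 windows, 16 were called lower (0.321% of all windows tested were) and 1 higher (0.263%) after OVA in PM offspring. Without the 3 choosing windows the counts were 13 and 1 of 150, and the 7 comparison genes alone gave 11 and 1 of 122. The called falls were 3 windows of Ptprc, 2 each of Bin2, Rhoh, Laptm5, Dock2 and Arhgdib, and 1 each of Cytip, Coro1a and Vav1. In Sham offspring, whose values chose the members, 17 member windows were called lower, against 0.296% of all windows, and nothing is read from that count.

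Without the minimum of 10 points, 53 member windows were lower and 74 higher at an adjusted p under 0.05 after OVA in PM offspring, while 26 did not pass. Over all windows, 34.8% were lower and 9.26% higher at that threshold, and the median difference was −1.03 points. With each library centred on its median, which brings the median over all windows to −0.05 points, 46 member windows were lower and 91 higher, against 20.4 and 21.8% of all windows. Without centring, the share of lower windows among members, 34.6%, was thus near that of the whole table, whereas windows called with falls of 10 points or more made up 10.5% of the members. The PM-OVA libraries all lay below all PM libraries in 36 member windows, and in 10.3% of all windows, and all above them in 27 member windows, 24 of them in Dock2, and in 1.65% of all windows. The genes differed in these counts: 9 of 9 windows of Rhoh, 5 of 5 of Rac2, 3 of 3 of Coro1a, 9 of 12 of Cytip and 4 of 5 of Arhgdib were lower with an adjusted p under 0.05, against 5 of 76 in Dock2 and 2 of 10 in Bin2.

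The differences were then set against the position in the gene. Distance was measured from the midpoint of a window to the 5′ end of the principal coding transcript. Among the 10 member windows between 0 and 5 kb downstream, with the 3 choosing windows left out, the median difference in PM offspring was −12.9 points (quartiles −14.4 and −11.1), and all 10 passed the adjusted p and 8 were called lower. In the same stretch of all other genes (30805 windows), the median was −0.07 points, 18.7% were lower with an adjusted p under 0.05 and 0.549% were called lower. Windows of members and of other genes were not matched for their level before OVA. A window that is nearly unmethylated, such as the start of Coro1a at 4.86% in PM, cannot fall by 10 points. From 5 to 10 kb, the member median was −6.46 points (10 windows), against −0.76 in other genes. From 10 to 20 kb it was −3.24 points (17 windows) and from 20 to 50 kb −2.21 (27 windows), against −0.68 and −0.76 in other genes. In the 7 comparison genes alone, the median from 20 to 50 kb was above 0, at 0.74 points, with 6 of 15 windows lower and 7 higher at an adjusted p under 0.05, against 30.8 and 11.1% of the 38169 windows of other genes in that stretch.

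Beyond 50 kb, a distance that only Dock2 (69 windows) and Ptprc (7 windows) reached, the direction was the opposite. The median of the 76 windows was a rise of 3.49 points, 61 rose with an adjusted p under 0.05 and none fell, while the median of the 82466 windows of other genes at that distance was −1.46 points, with 8.19% higher and 41.6% lower. The plot of differences by distance shows both the fall near the start and the rise far downstream. Windows of the same gene are neighbours on the chromosome and are not independent, and no test was made of this pattern over windows.

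**Figure D2:**
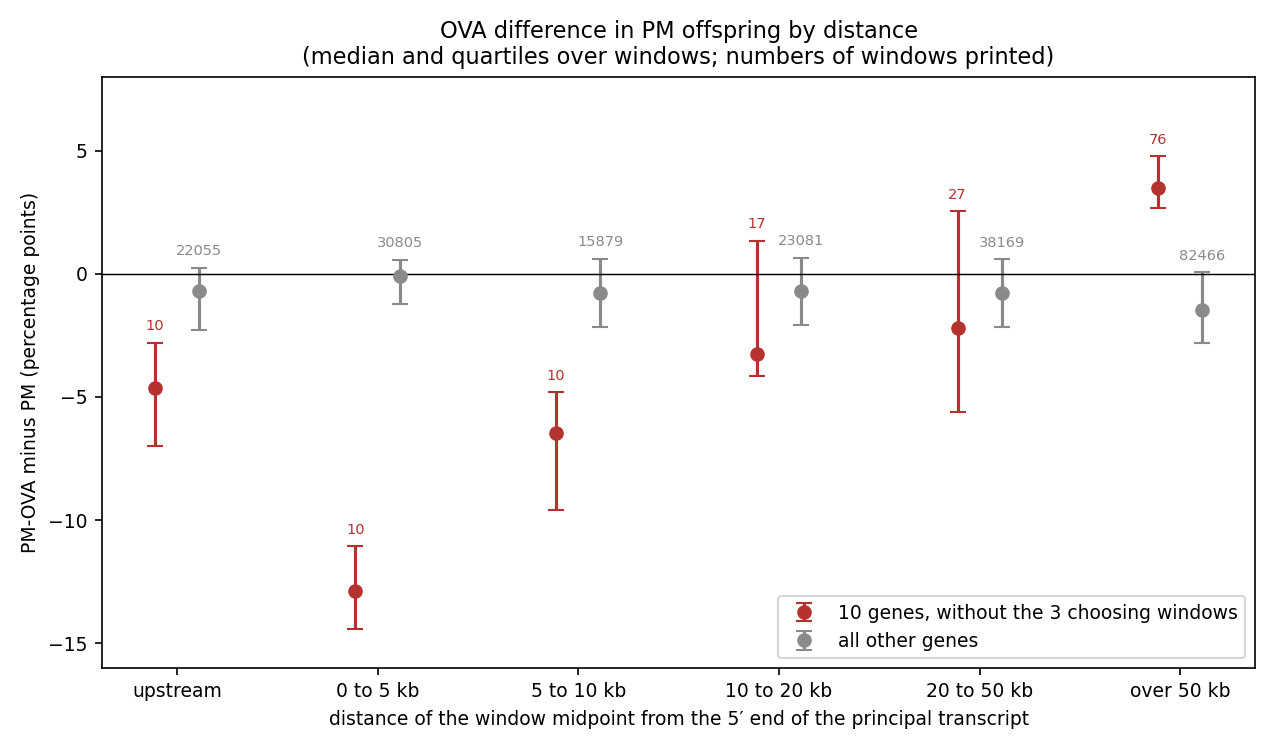
Difference between PM-OVA and PM (percentage points, y axis) by the distance of the window midpoint from the 5′ end of the principal transcript (x axis), as median and quartiles over windows, for the members without the 3 choosing windows (red) and all other genes (grey), with the number of windows printed above. Members are lowest at 0 to 5 kb, with a median of −12.9 points, and highest beyond 50 kb, with a median of 3.49 points; in the 7 comparison genes alone, which are not drawn apart, the median is above 0 from 20 to 50 kb as well, at 0.74 points.

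The course along single genes differed between genes. In Ptprc, the first 8 windows from the 5′ end fell over 65.3 kb with an adjusted p under 0.05, with differences of −10.7 and −12.2 points in the 2 at 36.4 and 42.1 kb, and 5 of the 7 windows after them rose. In Dock2, 4 windows fell over 24.3 kb, and 57 of the 72 windows after them rose while 1 fell. In Bin2, 2 windows fell over 5.47 kb, of which the second (chr15:100664666-100667743) went from 34.2% ± 2.14 to 23.3% ± 1.46, and 5 of the 8 windows after them rose. In Vav1, 5 windows fell over 19.5 kb and 6 of the 7 after them rose.

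In Laptm5 the 3 windows after the first 3 did not pass the adjusted p, with differences from 0.74 to 1.43 points. In Rhoh, Rac2 and Coro1a no window rose, and the falls reached the last window of the gene, where Rhoh went from 80.7% to 75.2%. Cytip had its largest difference around its coding start, with 4 neighbouring windows lower over 24.3 kb, then a window with a difference of 0.68 points that did not pass (limma adjusted p = 0.45) and 3 further windows that were lower, with differences from −3.31 to −7.01 points. Of the 4 windows of Cytip upstream of those neighbours, 2 were lower (−4.99 and −3.61 points), 1 was higher (5.28 points) and 1 did not pass. The plot along the genes shows these courses in both maternal groups.

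**Figure D3:**
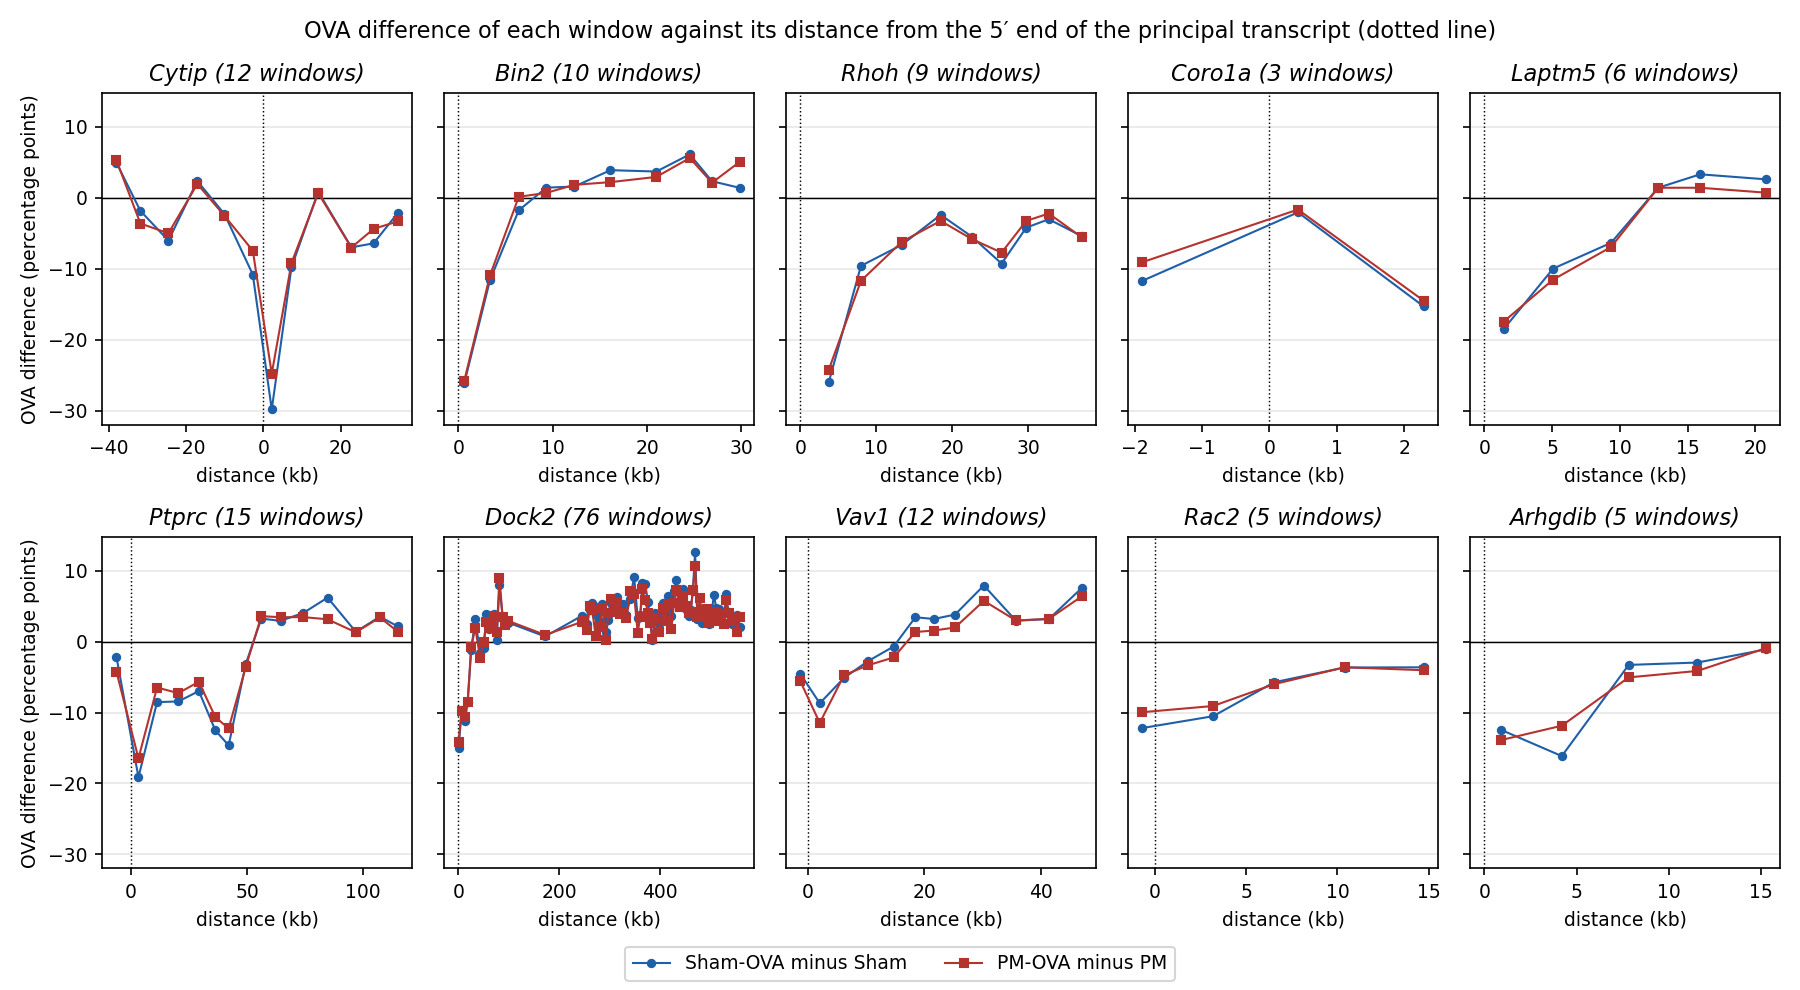
Difference between OVA and saline libraries (percentage points, y axis) of every window of the 10 genes against the distance of its midpoint from the 5′ end of the principal transcript (kb, x axis, a separate range for each gene; negative is upstream). Blue circles are Sham-OVA minus Sham and red squares PM-OVA minus PM; the lowest values lie near 0 kb, from −29.8 points in Cytip to −8.70 in Vav1 for the Sham groups, and Ptprc, Dock2, Bin2 and Vav1 lie above 0 further downstream.

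The 1 member window called higher lay deep within Dock2 (chr11:34311135-34315262), 471 kb from the start, and overlaps Fam196b, a gene inside Dock2. It was between 48.2 and 60.8% in PM (median 53.6%) and between 62.1 and 67.4% in PM-OVA (median 63.1%), a difference of 10.7 points (limma adjusted p = 2.70e-06, log2 ratio 0.63, SE 0.09). In Sham and Sham-OVA its means were 52.7% ± 2.44 and 65.3% ± 3.21 (SD, n = 7 each). Without PM replicate 5 the difference in PM offspring was under 10 points and the window was not called. The rise was not particular to the stretch shared with Fam196b: 18 of the 21 Dock2 windows over that gene rose with an adjusted p under 0.05 (median 4.77 points), as did 38 of the 48 other Dock2 windows beyond 50 kb (median 3.45 points).

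The level before OVA also differed along the genes. In PM libraries the lead windows had means from 46.0% in Laptm5 to 68.1% in Ptprc, with a median of 60.8%, whereas the median over the other 143 member windows was 77.5%. Ordered by the mean in PM, the lead windows were Ptprc (68.1%), Bin2 (67.4%), Rhoh (67.0%), Dock2 (65.4%), Vav1 (60.9%), Cytip (60.7%), Rac2 (56.4%), Arhgdib (51.7%), Coro1a (47.1%) and Laptm5 (46.0%). The first 4 lay within 1 SD of their neighbours, as did Vav1 and Cytip and the last pair, and the ranges of libraries overlapped between all neighbours in this order.

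Maternal PM was then compared within each challenge. For the 3 choosing windows, whose Sham values were selected, PM minus Sham is a description and came to −3.12 points in Cytip, −0.64 in Bin2 and −0.44 in Rhoh, and PM-OVA minus Sham-OVA came to 1.95, −0.29 and 1.29 points. Of the other 150 member windows, none was called for PM without OVA or for PM with OVA, as for 0.0% of all windows in either comparison. The differences ranged from −3.27 to 2.00 points without OVA and from −2.0 to 2.30 points with OVA, and the smallest limma adjusted p values were 0.805 and 0.816. At an unadjusted p under 0.05 there were 5 member windows without OVA, where 5.79% of all windows passed, and 5 with OVA, where 5.96% did. Without Sham replicate 1, again 0 member windows were called for PM, and 4 had an unadjusted p under 0.05 without OVA.

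The lead windows of all 10 genes were set by values of the Sham groups, which also enter these comparisons, and leaving all 10 out gave the same counts and smallest adjusted p over the other 143 windows. These p-values miss the threshold and do not show that the maternal groups were alike.

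Whether OVA changed a window by a different amount in PM than in Sham offspring was tested as an interaction for the 7 comparison genes. None of their 122 windows passed, with a smallest limma adjusted p of 0.597, and 3 had an unadjusted p under 0.05, against 7.4% of all windows. Without their 7 lead windows, which were set by the Sham fall, the count and the smallest adjusted p over the other 115 windows were the same, and the difference of the differences ranged from −3.06 to 2.62 points. In the lead windows it ranged from −2.77 points in Vav1 to 4.28 points in Arhgdib, as a description. In Cytip, Bin2 and Rhoh, where Sham values were selected for being large, it was 5.06, 0.34 and 1.74 points, with no test. Leaving out the 3 choosing windows, 149 of 150 member windows had the same direction of OVA difference in Sham and in PM offspring, as did 81.8% of all windows, and the exception was a window of Bin2 (chr15:100661648-100664665) with −1.75 and 0.15 points. The plot of both differences shows all 153 windows.

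**Figure D4:**
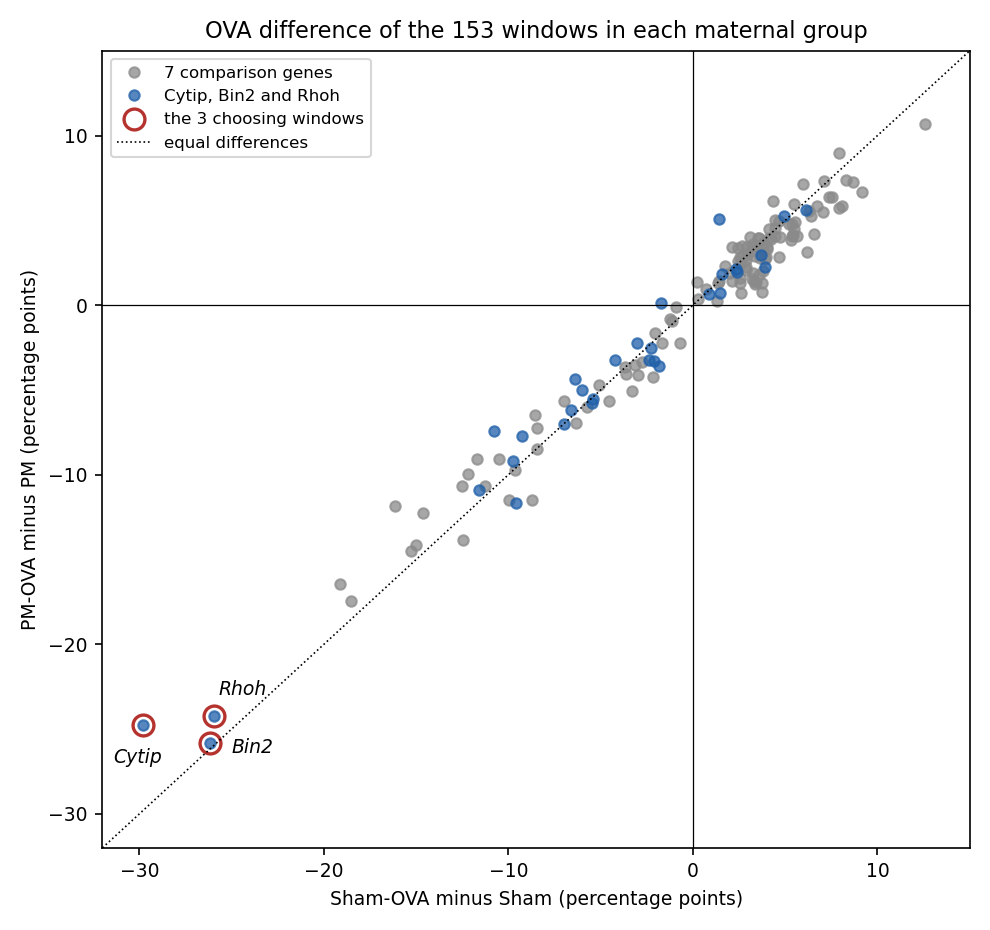
OVA difference in PM offspring (PM-OVA minus PM, percentage points, y axis) against that in Sham offspring (Sham-OVA minus Sham, percentage points, x axis) for the 153 windows, with the 3 windows whose x values chose the members circled in red. Points run along the dotted line of equal differences up to the Dock2 window at 12.6 and 10.7 points; Cytip, at −29.8 and −24.8 points, lies 5.06 points off it and the lead window of Arhgdib 4.28 points off.

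The mean over the 10 lead windows was between 58.1 and 62.0% in Sham, 37.2 and 47.5% in Sham-OVA, 55.8 and 61.8% in PM, and 38.2 and 44.7% in PM-OVA. In Sham-OVA 1 library, replicate 7, was the highest in 8 of the 10 lead windows and replicate 6 the lowest in 6, whereas in each of the other groups the library most often lowest was so in 4 or 5 of them and the one most often highest in 3 or 4. With the group means removed, Pearson's r on the log2 ratio across the 29 libraries was 0.59 between Cytip and Bin2, 0.51 between Cytip and Rhoh and 0.39 between Bin2 and Rhoh. Without that step it was 0.94, 0.95 and 0.93, values that nothing is read from, because these windows were chosen for their difference between Sham and Sham-OVA, whose libraries are among the 29. These correlations describe libraries of the same mice that share library, challenge and cell content.

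The windows most like the lead windows of Cytip, Bin2 and Rhoh were found among 258503 windows by the correlation without removal of the group means. The 29 libraries behind it include those of the Sham groups, whose values chose these 3 windows. For Cytip they were in Ptprc (its lead window), Zcchc2 and Glipr1, with r = 0.97 for each, and 0.75, 0.78 and 0.76 with the group means removed. For Bin2 they were in Evi5, Mob3a and Myc, with 0.97, 0.96 and 0.96, and 0.74, 0.72 and 0.71 with the group means removed. For Rhoh they were in Fam107b, Crlf3 and Cdk6, with 0.98 for each, and 0.79, 0.73 and 0.71 with the group means removed.

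Other regulators of small GTPases and actin in leucocytes were examined from a list of 30 gene names, of which 28 had windows (554 windows). In PM offspring 25 of these windows, in 14 genes, were called lower after OVA (4.51%, against 0.321% of all windows) and 3, in 2 genes, higher (0.542%, against 0.263%). Lcp1, which bundles actin, gave 5 called falls, the largest of −18.6 points (55.7 to 37.1%; chr14:75179895-75183936; limma adjusted p = 1.12e-09). Wipf1, a partner of the WASP protein, gave 3, and Fmnl1, a formin, fell by 20.4 points (65.0 to 44.6%; chr11:103171784-103175859; limma adjusted p = 9.12e-09). Fmnl1 also held a window that rose by 22.9 points (24.7 to 47.6%; chr11:103192627-103193602; limma adjusted p = 1.45e-05). Calls lower were also made in the integrin genes Itgal and Itgb2, in the exchange factors Dock8 and Dock10, in Arhgap15, Arhgap25 and Arhgap30, which inactivate small GTPases, and in Cyfip2, Fermt3, Lsp1 and Myo1g. The median difference over the 554 windows was 0.56 points, against −1.03 points over all windows tested. Without the minimum of 10 points, 128 of the windows were lower (23.1%, against 34.8% of all windows) and 172 higher (31.0%, against 9.26%) at an adjusted p under 0.05. Arhgap15 alone gave 57 of the 172, and without it the shares were 26.9% lower and 24.9% higher of 461 windows.

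A list of relatives of the members, taken as more broadly expressed, was examined in the same way. The expression of these genes was not examined here and may be narrow for some of them. Of 458 windows in 22 genes, including Rhoa, Rac1, Cdc42, Vav2, Dock1 and Arhgdia, 4 were called lower (0.873%) and 3 higher (0.655%), with a median difference of −0.84 points. The lower ones included 2 windows of Rhof, of which the larger difference was −16.8 points (67.2 to 50.3%; chr5:123124704-123127481; limma adjusted p = 1.77e-09), and 1 of Coro1b, and the higher ones were 2 windows of Coro1c and 1 of Dock1. Without the minimum of 10 points, 186 windows were lower (40.6%) and 66 higher (14.4%). Dock1 alone gave 79 of the 186, and without it the shares were 30.6% lower and 17.4% higher of 350 windows. The difference between the lists was not tested.

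Lists of genes used as cell type markers were described in the same libraries. The mean over the 16 windows of 5 eosinophil genes (Epx, Prg2, Siglecf, Ccr3, Il5ra) was between 69.3 and 71.4% in PM and between 65.5 and 66.9% in PM-OVA, and between 68.6 and 70.7% in Sham and 65.5 and 67.6% in Sham-OVA, and 10 of these windows (62.5%) were lower with an adjusted p under 0.05 and none higher. Over all windows these shares were 34.8 and 9.26%. For macrophage genes (45 windows) it was between 77.3 and 79.1% in PM and between 75.4 and 76.6% in PM-OVA, with 20 windows lower (44.4%) and 1 higher. In Sham and Sham-OVA the ranges of macrophage genes overlapped, at 76.9 to 78.4% and 75.4 to 77.9%. For 5 T cell genes (40 windows) the ranges in PM and PM-OVA were 66.3 to 67.4% and 65.1 to 66.2%, with 13 lower (32.5%) and 5 higher. In Sham and Sham-OVA they overlapped, at 65.8 to 67.2% and 65.1 to 66.2%. For 4 B cell genes (58 windows) the ranges in PM and PM-OVA were 62.0 to 63.2% and 60.6 to 62.1%, with 18 lower (31.0%) and 13 higher (22.4%). Those in Sham and Sham-OVA were 61.5 to 62.7% and 61.1 to 62.8%. The shares of lower windows for T and B cell genes were near that of the whole table. Called falls among these marker lists were in Cd79b, with differences of −10.9 and −13.9 points, and in the endothelial and leucocyte gene Pecam1, with −15.9 points. Called rises were in Pax5, a B cell factor, from 2.25 to 15.6% (limma adjusted p = 4.89e-09), and in another window of Pecam1, from 51.9 to 63.5% (limma adjusted p = 8.01e-05).

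Of the 69 windows of endothelial genes, 31 were higher (44.9%, against 9.26% of all windows) and 8 lower (11.6%, against 34.8%) with an adjusted p under 0.05, and their mean lay between 63.9 and 67.8% in PM and between 66.9 and 69.2% in PM-OVA. In Sham and Sham-OVA the ranges of endothelial genes did not overlap, at 64.2 to 66.99% and 67.04 to 69.3%. Epithelial genes (34 windows) lay between 50.8 and 52.2% in PM and between 50.4 and 51.9% in PM-OVA, with 6 windows lower (17.6%) and 5 higher. Mesenchymal genes (45 windows) lay between 61.6 and 63.3% in PM and between 60.8 and 62.3% in PM-OVA, with 14 windows lower (31.1%) and 8 higher (17.8%). The ranges in Sham and Sham-OVA were 50.4 to 52.1% and 51.1 to 52.1% for epithelial genes. For mesenchymal genes they were 61.2 to 62.6% and 61.1 to 62.6%. The part of these cell types in the differences of the 10 genes was not tested.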

How the data were processed

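Lung DNA of 29 mice was profiled by enzymatic methyl-sequencing. Per the labels and methods, the authors used Trim Galore for trimming and DRAGEN for mapping to GRCm38 and calling, and averaged the calls in SeqMonk over windows of 100 cytosines in CpG context with a minimum number of informative positions. The deposited values are percent methylation per window and library, kept for windows that overlap a gene and named for 1 gene. Read counts were not used here. No scaling of the percent values between libraries is described, whereas the authors' own test for differential methylation had library size as a covariate.

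Windows with at least 3 values in every group (259167 of 260686) were tested. The percent values were turned into the log2 ratio of methylated to unmethylated percent, with 1 percentage point added to each. All 4 groups were fitted together in limma 3.58.1 (R 4.3.3), with Benjamini-Hochberg adjustment over all windows tested. A call needed a difference of 10 points besides an adjusted p under 0.05. The fit was checked on simulated data. Other settings were another offset, scale, filter, threshold, centring, a replicate block, other samples in the fit, windows by position, and each library left out.

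Named windows were the largest fall in Sham offspring and the annotated 5′ end of each gene, the 3 windows most like those of Cytip, Bin2 and Rhoh, and the next gene after Rhoh; windows beyond these were named after their values were seen. The members and gene lists were chosen with earlier results of these data known. Positions come from GENCODE and promoters from RefSeq. Sites were searched in the 300 bases of the RefSeq promoter table, 250 before to 50 after a start, in place of the 300 bases upstream that had been planned. Replicate numbers did not pair the mice: same-numbered libraries deviated together with a correlation between −0.07 and 0.13 over 42 pairs. List genes were matched to windows by name.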

Additional observations from a re-analysis of the deposited data

Results flagged for a closer look

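In the 60 combinations of group and lead or 5′ end window that were examined, 1 library lay far from the others of its group. PM replicate 1 had 56.8% methylation in the lead window of Rhoh (chr5:65863076-65866824), with the nearest PM library at 65.5% and the highest at 70.7%. Such a gap arises by chance in about 1 of 20 groups.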

How the results depend on the processing

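In PM offspring 16 member windows were called lower and 1 higher after OVA. With a minimum difference of 5 points the counts were 35 and 20, and with none 53 and 74; fewer windows meet a larger minimum by construction. With an adjusted p under 1e-06, 15 windows were called lower and none higher. With each library centred on its median, 13 member windows were called lower and 1 higher. Over all windows, 572 were then called lower and 1003 higher, against 831 and 682 without centring. Leaving out each library in turn gave 16 to 18 windows lower and 0 to 1 higher, with 0 only without PM replicate 5, whose removal brought the Dock2 window under 10 points. The counts for PM without OVA and for PM with OVA were 0 to 0. Leaving out PM-OVA replicates 7 and 8 together gave 16 lower and 1 higher after OVA in PM offspring. With the replicate block the counts in PM offspring were 16 lower and 1 higher, all of them called without it too, and with 0 calls for PM; 9 of 29 libraries correlated best with their own number, so the numbers are not read as pairs. All 15 lead and 5′ end windows of the 10 genes kept their direction and an adjusted p under 0.05 in PM offspring under all 37 alternatives, Cytip between −26.1 and −23.2 points, Bin2 between −26.7 and −23.5 and Rhoh between −25.9 and −23.2. Unknown depth and whole tissue limit these values.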
